A study of Mus musculus with 7 samples.

Results

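The 7 genes described here encode the cationic proteins and ribonucleases of the eosinophil's secretory granule, namely Prg2, Prg3, Epx, Ear1, Ear2, Ear6 and Ear10. They were chosen by symbol, with no measured value in the rule, and are 7 of the 24421 genes in the count table. RNA was sequenced from eosinophils sorted out of digested, damaged mouse muscle 3 days after ntx, an abbreviation that the labels do not spell out. There were 3 libraries from mice of genotype WT and 4 from mice of genotype IL5-Tg, and both groups were sorted by the same gate, CD45-positive and SiglecF-positive with a CD11b gate and without NK1, Ly6G or CD3e. The title of the series names mdx mice, a model of Duchenne muscular dystrophy, but the labels give only the genotypes WT and IL5-Tg, with no strain, age, sex or transgene promoter. Nothing in them says that each library of a group is a mouse of its own. The p-values therefore measure the spread between these libraries, which may be technical.

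Eosinophils store a small set of strongly basic proteins in granules and release them onto parasites and into inflamed tissue. Prg2 encodes major basic protein, which forms the crystalline core of the granule, and Prg3 encodes its homologue. Epx encodes eosinophil peroxidase, a haem enzyme that uses hydrogen peroxide to oxidise halides and thiocyanate. The Ear genes encode eosinophil-associated ribonucleases, the mouse relatives of the human eosinophil cationic protein and eosinophil-derived neurotoxin. Granule protein RNA is made mainly while eosinophils mature in the bone marrow and is lower in mature cells, and some Ear genes are also expressed by macrophages and monocytes.

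Total counts were 11581365 to 20231509 per library, of which 9665093 to 17447106 were assigned to genes. Il5, which gives the IL5-Tg genotype its name, was at 338 to 447 CPM (a gene's counts scaled to 1000000 counts per library) in IL5-Tg libraries and at 1.39, 0 and 0 CPM in WT replicates 1, 2 and 3. Of the eosinophil markers, Siglecf ranged over the 7 libraries from 251 to 857 CPM and Ccr3 from 575 to 1393 CPM. The libraries were not pure and not alike. WT replicate 3 stood apart, with a summed level of 8 fibroblast markers of 15.4 CPM against 1969 to 4916 CPM in the other 6 libraries. Among genes with few reads, the count met most often was 5, 8 and 12 in the 3 WT libraries, in order of replicate, and 1, 1, 1 and 4 in the 4 IL5-Tg libraries. Low counts of a gene are therefore less precise in WT than they look. Unless stated, counting errors and floors given here treat reads as independent and cover counting error only.

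Granule protein and ribonuclease RNA was higher in eosinophils from IL5-Tg muscle for 3 members, Prg2, Ear1 and Ear6, by 6.79-, 9.22- and 12.4-fold between the group means. No member fell. Of the 7 members 6 passed the filter on low counts, 3 rose and 3 did not pass the test (edgeR quasi-likelihood test, Benjamini-Hochberg adjusted p under 0.05 over all 12428 tested genes). In the same comparison 0.410% of all tested genes were called, and 0.338% were called higher. The median log2 fold change of the 6 tested members was 2.27, beside 0.03 over all tested genes. Each of these 6 was above the filter in every WT library, so none was tested only because of its level in IL5-Tg cells. In 5 of the 6, all but Prg3, every IL5-Tg library lay above every WT library, which was so for 4.76% of all tested genes (9.36% in either direction). The count of 3 fell to 1 without WT replicate 2, IL5-Tg replicate 1 or IL5-Tg replicate 2.

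Prg2, major basic protein, was the most abundant member in every library. In order of replicate, WT libraries had 112, 104 and 144 CPM and IL5-Tg libraries 1023, 1122, 692 and 423 CPM. The WT libraries lay close together, whereas the IL5-Tg libraries spread over a wide range with replicate 4 lowest, and the groups did not overlap. From 120 ± 21.2 CPM (SD, n = 3) Prg2 rose to 815 ± 320 CPM (SD, n = 4), and the log2 fold change was 2.76 ± 0.37 (SE) with an edgeR adjusted p of 0.0160. The log2 fold change stayed between 2.32 and 2.97 over 19 other processing settings. Its call was lost without WT replicate 1 (edgeR adjusted p = 0.120), WT replicate 2 (0.0530), IL5-Tg replicate 1 (0.0624) or IL5-Tg replicate 2 (0.0504).

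Prg3, the homologue of major basic protein, lies beside Prg2 on chromosome 2 but did not pass the test. On mm10 (GENCODE vM21, plus strand) Prg2 spans chr2:84980461-84983632 and Prg3 chr2:84988215-84993886, with 4582 bases between them. Their coding sequences are 64.3% identical, and no stretch of read length is common to both or to any other transcript, so their reads can be told apart. Prg3 had 6.71, 8.66 and 7.37 CPM in the 3 WT libraries, and 7.40, 13.5, 11.4 and 2.44 CPM in the 4 IL5-Tg libraries. The IL5-Tg libraries held both the highest and the lowest value, and the groups overlapped. The log2 fold change was 0.20 ± 0.56 (SE; edgeR adjusted p = 0.960), between means of 7.58 ± 0.993 (SD, n = 3) and 8.68 ± 4.86 CPM (SD, n = 4). The sign of this value turned in 3 other settings, at -0.50 with titles that start alike taken as a block, -0.10 without IL5-Tg replicate 2 and -0.35 relative to other eosinophil markers.

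The ratio of Prg2 to Prg3 within a library, which does not depend on how libraries are scaled, separated the genotypes. The log2 ratio of reads was 3.57 to 4.27 in WT and 5.91 to 7.41 in IL5-Tg libraries, with means of 3.97 ± 0.36 (SD, n = 3) and 6.70 ± 0.68 (SD, n = 4). All 4 IL5-Tg libraries were therefore higher than all 3 WT libraries, by 2.73 between the means. The two-sided exact permutation test gave p = 0.0286, the smallest that 35 splits of 7 libraries allow, and an adjusted p of 0.0714 over the 15 pairs of tested members, which does not pass. Of the 12427 tested genes other than Prg3, 1.92% had a ratio to Prg3 that was higher in every IL5-Tg library.

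Epx, eosinophil peroxidase, lies on the minus strand at chr11:87864000-87875536 (mm10). The 3 WT libraries held 2.72, 5.60 and 15.2 CPM of it, in order of replicate, and the 4 IL5-Tg libraries 21.7, 32.8, 23.8 and 15.9 CPM. WT replicate 3 stood well above the other WT libraries and just below IL5-Tg replicate 4, so the groups were separate by a narrow gap. The means of 7.84 ± 6.55 CPM (SD, n = 3) and 23.6 ± 7.02 CPM (SD, n = 4) gave a log2 fold change of 1.59 ± 0.55 (SE), which did not pass (edgeR adjusted p = 0.402). Without WT replicate 3 the log2 fold change was 2.54 and passed (edgeR adjusted p = 0.0229), and with the level of macrophage and monocyte markers as a covariate it was 2.15 (edgeR adjusted p = 0.0388). It was 2.41 by limma-voom and 2.31 with titles that start alike as a block, neither of which passed (adjusted p = 0.274 and 0.121). WT replicate 3 was also the library with the lowest summed level of the 13 macrophage and monocyte markers, 2774 CPM against 4875 and 5457 CPM in WT replicates 1 and 2, and of fibroblast markers. The part of these other cells in the Epx values was not tested. In bulk libraries such as these, fewer cells of a type and less RNA per cell cannot be told apart.

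The Ear genes form a cluster of similar copies on chromosome 14. On mm10 Ear1 lies at chr14:43818765-43875517 (minus strand), Ear10 at chr14:43922720-43923559 (minus), Ear2 at chr14:44102654-44103534 (plus) and Ear6, 7750164 bases further on, at chr14:51853699-51854643 (plus). Their coding sequences are 94.4% to 97.0% identical among Ear1, Ear2 and Ear10, and 87.3% to 87.6% between Ear6 and these 3. The reads were 42 bases long per end, so what matters for the counts is how many stretches of that length belong to 1 gene. The following stretch of coding sequence (coding bases 401 to 442 of Ear1, GENCODE vM21 transcripts, mm10, 5′ to 3′) is shown because it is the same in Ear1, Ear2 and Ear10, so that a read from it cannot be assigned among them. Capitals mark bases that differ from Ear1.
Ear1: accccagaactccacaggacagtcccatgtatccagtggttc
Ear2: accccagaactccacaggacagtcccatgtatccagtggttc
Ear10: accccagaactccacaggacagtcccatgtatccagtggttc
Ear6: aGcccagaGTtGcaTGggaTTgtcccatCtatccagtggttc

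Ear6 differs from Ear1 at 9 bases of that stretch. A second stretch (coding bases 332 to 373 of Ear1) is shown because all 4 genes can be told apart in it, with 5 differences from Ear1 in Ear2, 7 in Ear10 and 8 in Ear6.
Ear1: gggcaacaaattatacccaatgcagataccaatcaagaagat
Ear2: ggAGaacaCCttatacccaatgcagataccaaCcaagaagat
Ear10: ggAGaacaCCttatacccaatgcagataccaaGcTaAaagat
Ear6: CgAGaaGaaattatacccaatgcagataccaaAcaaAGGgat

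Over whole transcripts, 97.4% of the 852 read-length windows of Ear6 occurred in no other gene. The share was 36.01% of 672 windows for Ear1, 51.8% of 678 for Ear2 and 56.8% of 637 for Ear10. Ear1 shared 30.7% of its windows with Ear2, 19.9% with Ear10 and 44.5% with Ear-ps9, a pseudogene by its symbol that was not analysed here. For Prg2, Prg3 and Epx every window was found in 1 gene only. Ear6 values thus rest almost wholly on sequence of its own, while the split between Ear1, Ear2 and Ear10 depends on how shared reads were assigned, which is not given in the sources used here.

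**Figure D1:**
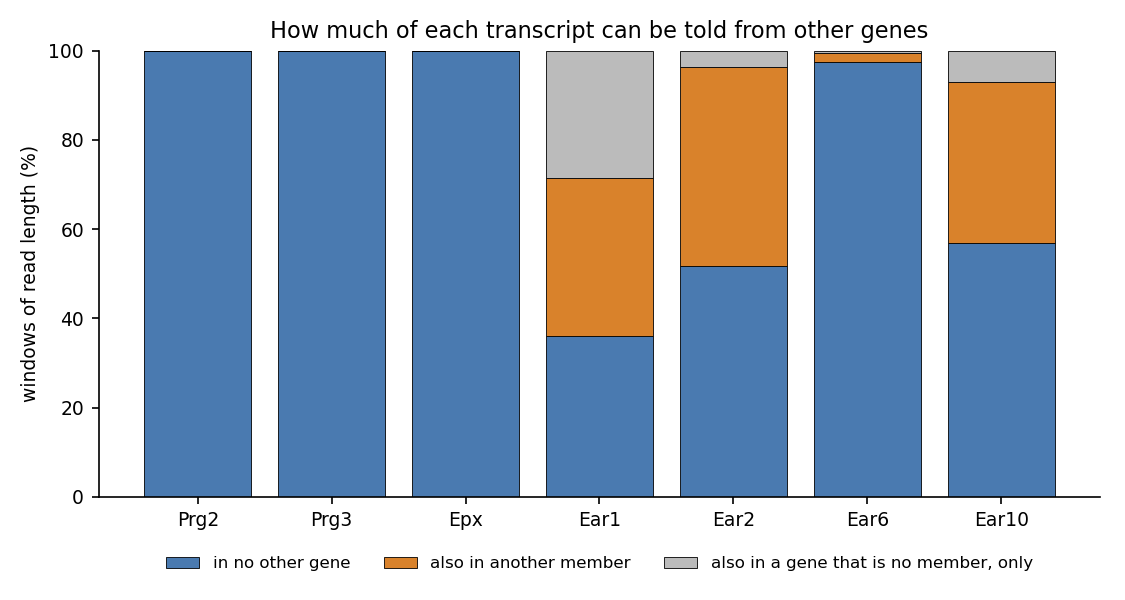
Share of 42-base windows (percent, y axis) of the longest coding transcript of each member (x axis) that occur in no other gene, in another member, or only in a gene that is no member. Prg2, Prg3 and Epx are at 100% in no other gene and Ear6 at 97.4%, whereas Ear1 is at 36.01%.

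Ear1 had the highest group means of the Ear genes, although in WT replicate 1 it had 128 reads and Ear2 129. WT libraries had 7.73, 7.92 and 11.3 CPM, in order of replicate, and IL5-Tg libraries 99.7, 91.3, 91.7 and 49.3 CPM. Apart from replicate 4 the IL5-Tg libraries were within 10 CPM of each other, and all 4 were far above the WT libraries. Group means were 8.998 ± 2.03 (SD, n = 3) and 83.0 ± 22.8 CPM (SD, n = 4), and Ear1 rose by 3.21 ± 0.34 log2 units (SE; edgeR adjusted p = 0.00311). It passed under all 19 other processing settings, with log2 fold changes from 3.11 to 3.43.

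Ear6 rose from very low WT levels. Its level, in order of replicate, was 4.53, 1.48 and 1.04 CPM for WT and 33.1, 31.7, 34.0 and 17.7 CPM for IL5-Tg. Replicate 1 was highest among the WT libraries, replicate 4 was lowest among the IL5-Tg libraries, and the groups did not overlap. The log2 fold change was 3.60 ± 0.56 (SE; edgeR adjusted p = 0.0268), between means of 2.35 ± 1.90 (SD, n = 3) and 29.1 ± 7.67 CPM (SD, n = 4). Without WT replicate 1 it was 4.53 (edgeR adjusted p = 0.0138). The WT values of replicates 2 and 3 were 14 and 11 reads, or 1.75 and 0.917 times the most common low count of those libraries, so they lay near the lowest counts met there. With all counts divided by that low count the log2 fold change was 3.30 (edgeR adjusted p = 0.00493). The call was lost without WT replicate 2 and without each of the 4 IL5-Tg replicates in turn (edgeR adjusted p = 0.0577 to 0.101), and with limma-voom (adjusted p = 0.258).

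Ear2 did not pass. In order of replicate it had 7.79, 3.801 and 2.17 CPM in WT libraries and 14.99, 16.1, 20.6 and 12.1 CPM in IL5-Tg libraries, so that the groups did not overlap. Means of 4.59 ± 2.89 CPM (SD, n = 3) and 15.96 ± 3.49 CPM (SD, n = 4) gave an edgeR adjusted p of 0.233 for a log2 fold change of 1.79 ± 0.49 (SE). Without WT replicate 1 the log2 fold change was 2.42 (edgeR adjusted p = 0.152), and by DESeq2 it passed, at 1.81 (adjusted p = 0.0279). Markers of macrophages and monocytes, which can also express Ear2, were present in both groups, at summed levels of 2774 to 5457 CPM in WT and 3413 to 6074 CPM in IL5-Tg libraries for 13 genes, none of them at 0 in all libraries and none called. For 8 markers of nonclassical monocytes the summed levels were 1751 to 3012 and 2131 to 4272 CPM, and 0 of 8 were called. Their part in the Ear2 values was not tested.

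Ear10 was close to undetected. All 3 of its reads were in IL5-Tg replicate 3, at 0.219 CPM, and 0 reads in the other 6 libraries allow at most 0.156 to 0.317 CPM by a floor of 3 independent reads. With a floor of 3 times the most common low count, the limit was 0.906, 2.53 and 3.40 CPM in WT replicates 1, 2 and 3. The WT zeros therefore do not set Ear10 below 0.219 CPM. No fold change is given. The rows Ear3, Ear4, Ear7, Ear12 and Ear14 had 0 reads in every library.

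**Figure D2:**
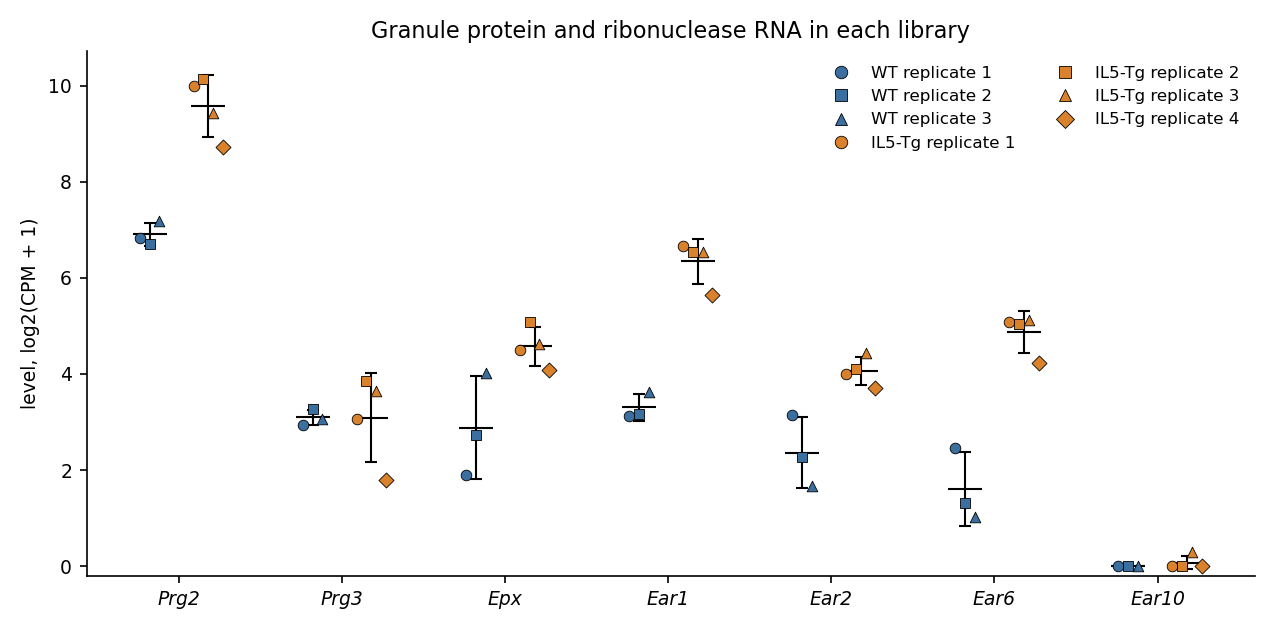
Level of each member, log2(CPM + 1) (y axis), in the 3 WT libraries (blue) and 4 IL5-Tg libraries (orange), with 1 symbol per library and the group mean ± SD as bars. Prg2, Epx, Ear1, Ear2 and Ear6 are higher in every IL5-Tg library than in any WT library, Prg3 overlaps, and Ear10 is near 0.

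Since reads of near-identical copies could be divided in different ways, the Ear rows were also summed. The sum, in order of replicate, was 20.1, 13.2 and 14.6 CPM for WT and 148, 139, 146 and 79.2 CPM for IL5-Tg. All IL5-Tg libraries were far above all WT libraries, with replicate 4 the lowest of them. Whatever the division among the counted copies, the Ear genes together rose, with means of 15.9 ± 3.63 CPM (SD, n = 3) and 128 ± 32.9 CPM (SD, n = 4). The log2 fold change was 3.00 ± 0.32 (SE; edgeR adjusted p = 0.00311), and under the 19 other settings it was 2.73 to 3.21 and passed in each.

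**Figure D3:**
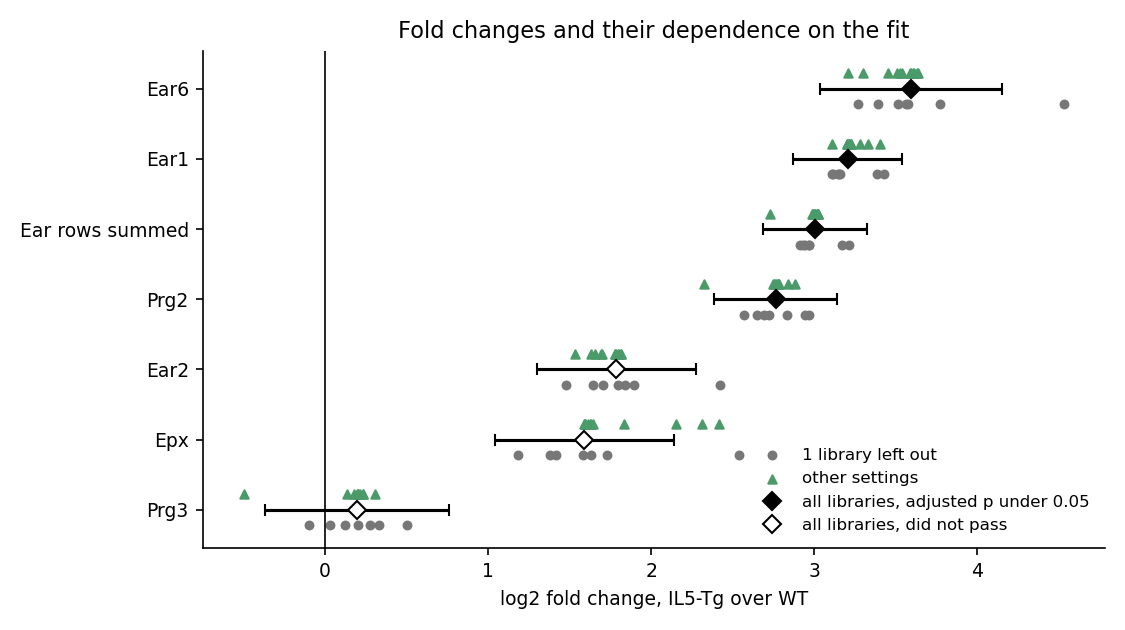
Log2 fold change of IL5-Tg over WT (x axis) for each tested member and the summed Ear rows (y axis), with diamonds and bars for the fit of all libraries ± SE, grey dots for fits without 1 library and green triangles for other settings. Filled diamonds passed the test, and Prg3 at 0.20 is the item whose values in those fits fall on both sides of 0.

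Ratios between members within a library, which need no scaling, were compared for all 15 pairs of tested members. All 5 ratios between Prg3 and another tested member left Prg3 lower, relative to its partner, in every IL5-Tg library than in every WT library, each with exact permutation p = 0.0286 (two-sided, adjusted p = 0.0714 over 15 pairs, which does not pass). The gap was narrow for Epx, with the lowest WT ratio of Prg3 to Epx at -1.04 and the highest IL5-Tg ratio at -1.05. With counts thinned to the smallest library the ratios to Epx and to Ear2 overlapped (exact permutation p = 0.0571 and 0.0857). From WT to IL5-Tg, the mean log2 ratio of Prg3 to Ear6 differed by -3.86, to Ear1 by -3.22, to Ear2 by -1.99 and to Epx by -1.93, beside 2.73 for Prg2 to Prg3. Among the Ear genes the ratio of Ear2 to Ear6 also separated the groups, since Ear2 had more reads than Ear6 in every WT library and fewer in every IL5-Tg library. The log2 ratio was 0.774 to 1.30 in WT and -1.14 to -0.54 in IL5-Tg libraries, a difference of -1.87 between the means (exact permutation p = 0.0286, adjusted p = 0.0714).

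Ear1 and Ear6 kept an almost constant proportion within the IL5-Tg group. The log2 ratio of Ear1 to Ear6 reads was 1.43 to 1.59 in the 4 IL5-Tg libraries and 0.763 to 3.33 in the 3 WT libraries, so the groups overlapped (difference of means -0.64, exact permutation p = 0.343). The log2 ratio of Prg2 to Ear1 was 3.66 to 3.85 in WT and 2.92 to 3.62 in IL5-Tg libraries. These ranges did not overlap, by a narrow gap (difference -0.49, exact permutation p = 0.0571, adjusted p = 0.107). They overlapped when 5 was added to the reads in place of 1, and with counts divided by the most common low count. In the latter the lowest WT ratio was 3.54 and the highest IL5-Tg ratio 3.62. They stayed apart with counts thinned to the smallest library and in each fit without 1 library. After adjustment 0 of the 15 pairs passed at 0.05. The count of non-overlapping pairs was 7 of 15, where 10.5% of all pairs of tested genes did not overlap, and the pairs of members share genes and are not independent. It was 12 of 15 without WT replicate 1 and 5 of 15 with counts thinned to the smallest library.

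**Figure D4:**
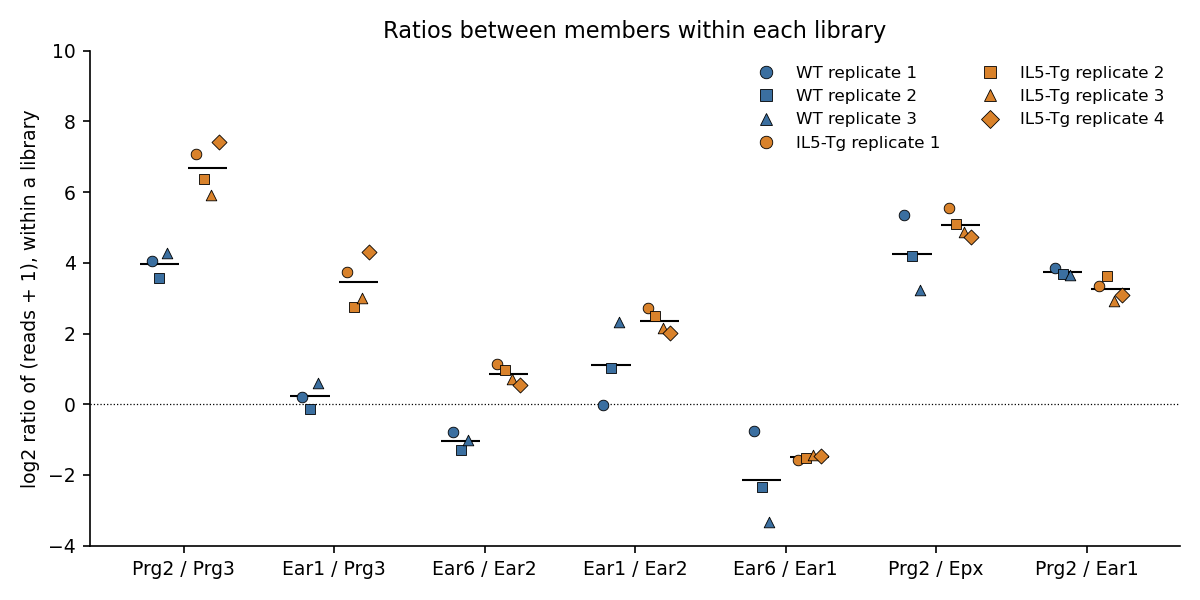
Log2 ratio of (reads + 1) between 2 members within each library (y axis) for 7 pairs (x axis), WT in blue and IL5-Tg in orange, with 1 symbol per library and the group mean as a line. Ratios to Prg3 and the ratio of Ear6 to Ear2 are separate between the groups, and the 4 IL5-Tg libraries lie close together in the ratio of Ear6 to Ear1.

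Levels of different genes were compared per kilobase of the longest coding transcript. On this scale the order in IL5-Tg libraries was Prg2 at 973 ± 381 CPM per kilobase (SD, n = 4), Ear1 at 116 ± 32.0, Ear6 at 32.6 ± 8.58, Ear2 at 22.2 ± 4.86, Prg3 at 9.15 ± 5.12, Epx at 8.76 ± 2.61 and Ear10 last. The ranges of Ear6 and Ear2 overlapped, although Ear6 was above Ear2 in 4 of 4 libraries, and Prg3 and Epx overlapped too. In WT libraries the order was Prg2 at 143 ± 25.3 CPM per kilobase (SD, n = 3), Ear1 at 12.6 ± 2.85, Prg3 at 7.99 ± 1.05, Ear2 at 6.38 ± 4.02, Epx at 2.92 ± 2.43 and Ear6 at 2.63 ± 2.13. There the ranges of Ear2 overlapped with those of Prg3, Epx and Ear6, and those of Epx and Ear6 with each other. Ear6 thus stood last of the 6 tested members by its WT mean, and behind only Prg2 and Ear1 by its IL5-Tg mean. Prg2 alone took 79.1% to 79.5% of all reads of the 7 members in WT libraries and 79.2% to 85.8% in IL5-Tg libraries.

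The same members were set against summed eosinophil markers, as a check chosen after the data were seen. Reads of each member were divided by the summed reads of 8 eosinophil markers that are not members, which stood at 6788 to 13131 CPM in WT and 9076 to 14754 CPM in IL5-Tg libraries. The 8 were Siglecf, Ccr3, Il5ra, Alox15, Csf2rb, Csf2rb2, Adgre1 and Cd24a. Their log2 fold changes ran from -0.97 for Il5ra to 0.60 for Alox15. The part of other cells in this sum was not tested, so it is not a measure of eosinophil RNA alone. Relative to these markers, the log2 level was higher in IL5-Tg libraries by 3.51 for Ear6, 2.87 for Ear1, 2.38 for Prg2, 1.64 for Ear2 and 1.58 for Epx. For these 5 of 6 members the groups did not overlap (each exact permutation p = 0.0286, two-sided, over 35 splits), which was so, in this direction, for 1.96% of the 12420 tested genes other than these markers. The value for Prg3 was -0.35 (exact permutation p = 0.657). Of the 10 eosinophil markers listed, 2 of them members, Prg2 was the 1 that passed edgeR's test.

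**Figure D5:**
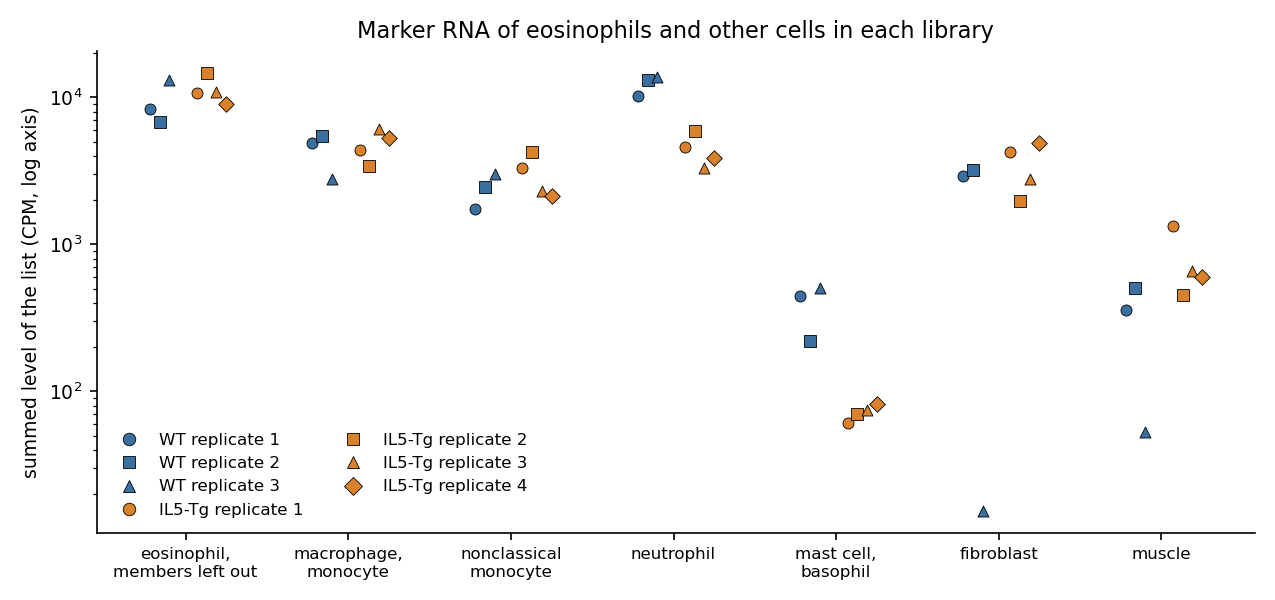
Summed level of marker lists (CPM, log axis) in the 3 WT libraries (blue) and 4 IL5-Tg libraries (orange), with 1 symbol per library. Eosinophil markers other than the members overlap between the groups, WT replicate 3 has a fibroblast sum of 15.4 CPM, and the neutrophil and mast cell sums are lower in every IL5-Tg library. The neutrophil sum is nearly all Retnlg and Mmp9, and the mast cell sum is mostly Hdc.

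Summed markers of other granulocytes were lower in every IL5-Tg library than in any WT library. The summed level of 10 mast cell and basophil markers was 221 to 505 CPM in WT and 60.6 to 82.7 CPM in IL5-Tg libraries. In every library most of this sum was Hdc, which makes histamine. Of 6 tested genes 1 fell, Hdc itself (log2 fold change -2.51, edgeR adjusted p = 0.0236). The median log2 fold change of the 6 was -2.39, and 0 were positive. For 14 markers of neutrophils and immature granulocytes the sums were 10250 to 13817 and 3336 to 5939 CPM, most of it Retnlg, a resistin-like gene that fell by 1.58 on the log2 scale (edgeR adjusted p = 0.0416). In that list Ngp, a neutrophil granule protein, rose to 28.3 ± 3.52 CPM (SD, n = 4; edgeR adjusted p = 0.00311), from 6 reads in all WT libraries together. All 3 WT libraries were under the filter level for Ngp, so it was tested only because of its IL5-Tg reads. Mmp9 and S100a8 overlapped between the groups and were not called (log2 fold change -1.14 and -3.08, edgeR adjusted p = 0.467 and 0.407). S100a8 had 157, 65.1 and 2.36 CPM in WT replicates 1, 2 and 3. The last value was under that of IL5-Tg replicate 1, the lowest of its group at 5.43 CPM. Of 10 tested genes in the neutrophil list 3 had positive log2 fold changes. The neutrophil sum thus mainly reflects Retnlg and not the list as a whole. None of the markers in these lists was at 0 in all libraries. Markers of dividing progenitors gave 0 calls of 6, with sums of 38.2 to 203 CPM in WT and 192 to 317 CPM in IL5-Tg libraries. For 10 muscle fibre and progenitor markers the sums were 52.9 to 506 CPM in WT and 456 to 1344 CPM in IL5-Tg libraries, with 0 of 8 tested called. All 8 had positive log2 fold changes, with a median of 1.71, and Acta1, Ckm and Atp2a1, genes of the muscle fibre, were higher in every IL5-Tg library than in any WT library, as most members were. Of 8 fibroblast markers 0 were called, and 8 had positive log2 fold changes with a median of 0.64. T, B and NK cell markers stood at 3.32 to 6.84 CPM in sum over the 7 libraries, with 0 of 2 tested called. Prg2 is also known from mast cells and basophils, and the part of these and the other cells in the member values was not tested.

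Other ribonucleases of the same superfamily did not pass. Of 17 listed genes 6 were tested and 0 were called. Rnase2a, for which RefSeq lists the synonym Ear11, had 0 reads in each WT library and 22, 6, 74 and 25 reads in the 4 IL5-Tg libraries, a mean of 2.30 CPM. It did not pass (edgeR adjusted p = 0.215), and it was tested only because of its IL5-Tg reads. Of its read-length windows 99.2% occurred in no other gene. Rnh1, the cytosolic inhibitor of these ribonucleases, averaged 811 ± 171 CPM in WT (SD, n = 3) and 1063 ± 235 CPM in IL5-Tg (SD, n = 4) cells (log2 fold change 0.39, edgeR adjusted p = 0.790).

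Of the genes that serve the peroxidase, 0 of 8 for haem synthesis passed, and Alas1, which catalyses the first step, was at 119 ± 39.3 and 178 ± 51.4 CPM (SD, n = 3 and 4; edgeR adjusted p = 0.670). Among other haem peroxidases Lpo had 0 reads, Mpo had 3 WT and 41 IL5-Tg reads, and Pxdn was at 0.82 (log2 fold change, edgeR adjusted p = 0.8295). In the list of granule assembly and cargo handling 1 of 13 rose, Xbp1, a transcription factor needed for secretory capacity and for eosinophil development in mice, whose means were 123 ± 11.8 and 513 ± 145 CPM (SD, n = 3 and 4), 2.06 apart on the log2 scale (edgeR adjusted p = 0.0172). The median log2 fold change of that list was 0.12, beside 0.03 over all tested genes.

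Granule exocytosis genes gave 0 calls of 14, with a median log2 fold change of -0.12. The 2 with the smallest p were the syntaxins Stx11, at -0.77 (edgeR adjusted p = 0.405), and Stx3, at 0.67 (edgeR adjusted p = 0.524). Of 10 transcription factors linked to the eosinophil lineage 0 passed. Gata2 averaged 22.1 ± 11.5 CPM in WT (SD, n = 3) and 65.7 ± 9.61 CPM in IL5-Tg (SD, n = 4) cells, groups that did not overlap (log2 fold change 1.57, edgeR adjusted p = 0.126). Its relative Gata1, which drives eosinophil commitment, was at 0.49 (edgeR adjusted p = 0.801), and Irf8 at 0.53 (edgeR adjusted p = 0.772). Of 10 tested neighbours of Prg2, Prg3 and Epx on their chromosomes 0 passed, and the 2 with the smallest p were Rtn4rl2 at 2.59 and Slc43a1 at 1.99 (edgeR adjusted p = 0.653 and 0.712), both under 5 CPM in every library.

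The upstream sequences of the Ear genes were compared because these genes are close copies. RefSeq promoters (GRCm38.p6) were found for 6 of the 7 members, all but Prg2. In windows from 250 bases before to 50 bases after the start, Ear1 and Ear2 were 97.0% identical, Ear1 and Ear10 91.4%, and Ear6 79.0% to 80.7% identical to these 3. The RefSeq starts of Ear1, Ear6 and Ear10 differ from those of GENCODE. By the GENCODE spans given above, the Ear1 window lies inside Ear1 and the Ear6 window runs into Ear6. The 250 bases before each RefSeq start are given 5′ to 3′ on the gene's strand. Capitals mark the longest run that all 4 share, 57 bases, found exactly in 4 of 32851 RefSeq promoters. The run was defined from these 4 genes, so that count is not a test. The Rnase2a promoter holds a similar stretch that is not identical.
Ear1, chr14:43819640-43819889 (minus): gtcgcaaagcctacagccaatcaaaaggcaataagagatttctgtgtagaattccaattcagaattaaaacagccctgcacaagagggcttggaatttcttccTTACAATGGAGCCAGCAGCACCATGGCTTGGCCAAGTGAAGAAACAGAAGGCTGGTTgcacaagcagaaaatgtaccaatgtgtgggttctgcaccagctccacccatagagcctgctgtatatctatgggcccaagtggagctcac
Ear2, chr14:44102404-44102653 (plus): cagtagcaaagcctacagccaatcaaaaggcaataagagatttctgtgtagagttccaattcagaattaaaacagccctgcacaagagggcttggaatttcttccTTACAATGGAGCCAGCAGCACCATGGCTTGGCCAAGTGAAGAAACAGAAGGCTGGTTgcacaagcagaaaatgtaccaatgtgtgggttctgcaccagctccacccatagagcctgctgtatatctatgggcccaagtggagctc
Ear10, chr14:43923597-43923846 (minus): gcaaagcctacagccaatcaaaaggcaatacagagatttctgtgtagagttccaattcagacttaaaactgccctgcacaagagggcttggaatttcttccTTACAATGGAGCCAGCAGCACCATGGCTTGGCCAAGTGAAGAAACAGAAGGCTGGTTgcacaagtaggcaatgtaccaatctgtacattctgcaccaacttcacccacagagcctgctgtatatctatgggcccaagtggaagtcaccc
Ear6, chr14:51853518-51853767 (plus): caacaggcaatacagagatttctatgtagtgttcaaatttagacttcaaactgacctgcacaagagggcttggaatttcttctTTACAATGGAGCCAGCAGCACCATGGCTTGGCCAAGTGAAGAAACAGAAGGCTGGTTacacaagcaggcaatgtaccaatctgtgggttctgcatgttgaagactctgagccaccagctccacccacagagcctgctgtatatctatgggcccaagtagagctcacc

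Ear1 and Ear2, with the more similar promoters, had log2 fold changes of 3.21 and 1.79, and Ear1 and Ear6, with the less similar ones, 3.21 and 3.60. The test of the within-library ratio passed for neither pair (exact permutation p = 0.0857 and 0.343), and read assignment limits the first. The part of upstream sequence in these fold changes was not tested. Searching both strands, the letters GATAA, bound by GATA factors, occurred 1 time in each of the 4 Ear promoters, 2 times in that of Prg3 and 0 times in that of Epx, and in 25.4% of all promoters of this length. The letters TTNCNNAA, a core of C/EBP sites, occurred 1 time in each Ear promoter and in that of Prg3, 0 times in that of Epx, and in 40.7% of all promoters. The letters GGAAGT, a core of ETS sites, occurred 2 times in the Ear10 promoter, 1 time in that of Prg3 and 0 times in those of Ear1, Ear2, Ear6 and Epx, and in 23.8% of all promoters. Letter matches are a description of these windows and not a site.

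Genes whose profile over the 7 libraries was closest to a member were found by the root mean square difference of centred log2(CPM + 1) values among 7911 genes with a mean of at least 10 CPM. For Prg2 they were Tgm1, a transglutaminase, at 0.288, the adenosine receptor gene Adora2a at 0.307 and the cyclooxygenase gene Ptgs1 at 0.372. For Ear1 they were Tgm1 at 0.323, Ptgs1 at 0.341 and Lypd6 at 0.401, so that Tgm1 and Ptgs1 were close to both. The closest to Epx were Fam46c at 0.261, F2rl2 at 0.291 and Alox12e at 0.294, and to Ear2 Fam43a at 0.246, Fbxo25 at 0.247 and Rcan3 at 0.302. Tgm1 went from 6.28 to 46.7 CPM between the group means, and Fam46c from 27.5 to 81.3 CPM.

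A pair of WT libraries share the start of their title with an IL5-Tg library, which the labels do not explain. In both such pairs the IL5-Tg library was higher for Prg2, by 2.61 and 2.02 log2 units of CPM + 1, for Ear1 by 3.41 and 2.50, for Ear6 by 2.66 and 2.92, for Ear2 by 1.29 and 1.45 and for Epx by 2.74 and 1.36. For Prg3 the pairs went opposite ways, at 0.69 for WT replicate 1 with IL5-Tg replicate 3 and -1.49 for WT replicate 2 with IL5-Tg replicate 4.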

How the data were processed

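RNA of sorted muscle eosinophils from 3 WT and 4 IL5-Tg samples was sequenced as paired 42-base reads from stranded mRNA libraries, per the labels' protocols. The authors deposited counts of reads for each gene symbol, with no normalization, as their whole numbers and differing totals show. The submitters' processing notes name bcl2fastq 2.20, Bowtie, STAR and mm10. Which program and annotation counted the reads, and with which strand setting, is not given in the sources used here. Groups follow the labelled genotype, and replicate numbers are in accession order. Rows of ambiguous reads (0.750% to 0.943% of counts) and reads of no feature (9.15% to 18.2%) were left out.

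Tests used edgeR 4.0.16 in R 4.3.3 (filterByExpr, TMM, robust quasi-likelihood F test, genotype as the only term), tested on simulated data, with p-values adjusted over all 12428 tested genes. CPM values use TMM-scaled library sizes, and a standard error is the fold change over the root of its F value. Alternatives included DESeq2 1.42.0 and limma 3.58.1. Ratios between members used reads + 1 and a two-sided exact permutation test. The members, lists and tests were chosen with earlier results of these data known. Named genes were the members, called list genes (or up to 2 of smallest p) and the 3 genes closest in profile to each of 4 members. Gata1, Mpo, Lpo, Mmp9, S100a8, Acta1, Ckm, Atp2a1 and the 8 eosinophil markers that are not members were added after their values were seen. Positions, transcripts and windows are from GENCODE vM21 (mm10), and promoters from RefSeq GRCm38.p6. Chi-square values between libraries of a group, divided by the number of genes, were 26.0 to 149, so none was treated as a repeat.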

Additional observations from a re-analysis of the deposited data

Results flagged for a closer look

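IL5-Tg replicate 4 stood below the other IL5-Tg libraries for the Ear genes. Its level was 49.3 CPM for Ear1, 17.7 CPM for Ear6 and 79.2 CPM for the summed Ear rows, and in each case its gap to the next library, divided by the group's range, passed Dixon's 95% critical value for 4 samples, at 0.834, 0.864 and 0.875. The summed Ear value holds the other 2, so these are not separate observations. The same library was also lowest among IL5-Tg libraries for Prg2, Prg3, Epx and Ear2, without passing that value. It had the highest summed fibroblast markers, 4916 CPM, and the lowest summed eosinophil markers other than the members among IL5-Tg libraries, 9076 CPM. Their part in the result was not tested.

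Ear10, at 0.219 CPM in IL5-Tg replicate 3, also passed, because the other 3 IL5-Tg libraries had no read. It rests on 3 reads. Chance passes about 1 in 20 groups, and 8 values were examined.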

How the results depend on the processing

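Over 19 other settings the summed Ear rows and Ear1 kept their direction and their call, and Prg2 and Ear6 kept their direction. The number of genes called over the whole table, 51 with all libraries, was 225 by DESeq2, 22 by limma-voom with quality weights, 97 by the newer edgeR fit, 100 with counts divided by the most common low count, 114 with macrophage marker level as a covariate and 16 to 97 without 1 library (19 and 97 without WT replicates 1 and 3, and 16, 16, 17 and 30 without IL5-Tg replicates 1, 2, 3 and 4). The share called higher, 82.4% with all libraries, was 62.7% by DESeq2 and 49.2% without WT replicate 2. The members called were 3 of 6, and 1 to 4 without 1 library (1 without WT replicate 2, IL5-Tg replicate 1 or IL5-Tg replicate 2). Pairs of members with separate ratios were 7 of 15, 7 to 12 without 1 library, 5 with counts thinned to the smallest library and 8 with counts divided by the most common low count, and 0 passed after adjustment in each of these. Without 1 library no pair could pass, because the smallest possible exact permutation p was 0.0667 without a WT library and 0.1 without an IL5-Tg library. The log2 fold change of Prg3, 0.20, became -0.50 with the shared title start as a block, -0.10 to 0.50 without 1 library (-0.10 without IL5-Tg replicate 2) and -0.35 relative to other eosinophil markers. The labels give no replicate numbers, so only this title start could serve as a replicate block. With it 52 genes were called and the members' calls did not change (edgeR adjusted p = 0.00718 for Prg2). In that fit WT replicate 3 and IL5-Tg replicates 1 and 2 had no library of the other genotype in their block. The genotype effect there rested on WT replicate 1 with IL5-Tg replicate 3 and WT replicate 2 with IL5-Tg replicate 4. The cause of the differences between settings was not tested. WT reads of the tested members other than Prg2 were few, at 11 to 161 per library, which limits the precision of their fold changes and ratios.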
